A study of Mus musculus with 48 samples.

Results

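A set of 64 probes was examined whose signal was higher in the cortex of APP/PS1 mice than in that of wild-type (WT) littermates, while their signal in the hippocampus of the same mice was not. The 64 probes, out of 56605 on the array, were chosen from the mice that drank plain water (H2O). The scanner software had to mark a probe as well above background on 4 or more APP/PS1 H2O arrays of each tissue. Every APP/PS1 H2O cortex array had to lie above every WT H2O cortex array, with a mean difference of at least 0.585 on the log2 scale (the log2 of 1.5-fold), and the mean difference in the hippocampus could not exceed 0.2. The first of these conditions, no overlap between the cortex groups, was met by 2.26% of 33595 detected probes with a value on every array. Of 33678 probes detected in both tissues, 480 met the cortex conditions, and these 64 also met the hippocampus condition, which left 416 other probes raised in the cortex. A gene symbol was found for 58 of the 64 probes, which stand for 56 genes. Because the H2O mice chose the genes, their H2O values are given below as a description, and tests were made in the mice given MSX-3, which the choice did not use.

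Gene expression was measured on 48 one-colour Agilent arrays from the cortex and hippocampus of 24 male mice, with 6 arrays for each of 8 groups formed by tissue, genotype and drink. APP/PS1 mice were heterozygous APPswe/PS1dE9 animals on a C57Bl6/J background, which carry human mutant amyloid precursor protein and presenilin transgenes driven by the prion protein promoter, and WT mice were their littermates. The adenosine receptor antagonist MSX-2 reached treated mice as its soluble prodrug MSX-3, which they drank at 0.3 g/L from 3 months of age (the series description names a later month) until the mice were 9 to 10 months old, and control mice had plain water. Both tissues came from the same mice and from 1 hemisphere, so the tissues are not independent samples, genotypes were kept in separate cages, so that cage and genotype cannot be told apart, and bulk tissue was used, in which more cells of a type and more RNA per cell cannot be told apart.

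In APP/PS1 mice amyloid plaques form in the cortex and hippocampus, and microglia and astrocytes gather around them. Plaque-associated microglia are known to take up lipid and debris, to express receptors, proteases and chemokines of the innate immune system and to raise genes of lipid and iron handling, while astrocytes near plaques raise secreted acute-phase proteins. PU.1 is the transcription factor that defines the macrophage and microglia lineage, C/EBP-delta is induced by inflammatory signals, and STAT proteins carry cytokine and interferon signals to the nucleus. Cortex and hippocampus differ in their resident neurons, in white matter content and in neighbouring tissue, since the choroid plexus lies next to the hippocampus.

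Promoters are shown for 4 of the 9 members in which the letters of a PU.1 site were found, picked after their values were seen from the members described array by array below. RefSeq windows of 300 bases (250 before to 50 after the start, build GRCm38.p6) were held for 43 of the 56 genes, as 59 windows, and were searched on both strands for 4 motifs. The 8 letters GAGGAAGT occurred in 9 of 59 windows (15.3%), those of Aim2, Arpc1b, Cd5, Csf2rb2, Frrs1, Parvg, Rab32, Slc22a18 and Spp1, against 3.20% of all 32851 windows and 10.0% of the 289 windows of the other genes raised in cortex. TTGCNNAA (C/EBP) occurred in 10.2% of the members' windows and 10.8% of all, TGANTCA (AP-1) in 10.2% and 7.81%, and TTCNNNGAA (STAT) in 11.9% and 8.30%. These shares are descriptions of letters and were not tested, and none of them shows that a factor was bound. The windows of Frrs1 (chr3:116859317-116859616, plus strand), Csf2rb2 (chr15:78305672-78305971, minus strand), Spp1 (chr5:104434861-104435160, plus strand) and Arpc1b (chr5:145114006-145114305, plus strand) are printed 5′ to 3′ with GAGGAAGT, or its reverse complement, in capitals. The window that Rnase4 and Ang share (chr14:51090827-51091126, plus strand) holds none and is printed because Rnase4 was 1 of 3 members whose genotype difference differed between the tissues, while its neighbour Ang lay just outside the choice.
Frrs1: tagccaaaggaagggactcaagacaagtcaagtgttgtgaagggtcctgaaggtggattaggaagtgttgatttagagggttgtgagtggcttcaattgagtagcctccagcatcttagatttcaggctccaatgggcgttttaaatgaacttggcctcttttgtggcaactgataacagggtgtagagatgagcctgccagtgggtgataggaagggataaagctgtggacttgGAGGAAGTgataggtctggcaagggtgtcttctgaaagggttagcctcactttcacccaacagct
Csf2rb2: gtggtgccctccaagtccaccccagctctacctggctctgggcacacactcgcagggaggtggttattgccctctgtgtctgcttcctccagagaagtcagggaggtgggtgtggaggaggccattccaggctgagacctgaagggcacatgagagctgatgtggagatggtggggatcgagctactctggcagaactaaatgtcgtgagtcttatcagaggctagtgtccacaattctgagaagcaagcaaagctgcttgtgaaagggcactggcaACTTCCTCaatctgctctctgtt
Spp1: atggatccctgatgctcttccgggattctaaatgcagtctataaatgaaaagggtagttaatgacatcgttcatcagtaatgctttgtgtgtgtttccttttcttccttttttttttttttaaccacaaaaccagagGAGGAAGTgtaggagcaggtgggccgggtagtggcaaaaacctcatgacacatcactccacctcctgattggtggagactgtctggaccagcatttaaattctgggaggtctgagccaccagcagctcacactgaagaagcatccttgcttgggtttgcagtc
Arpc1b: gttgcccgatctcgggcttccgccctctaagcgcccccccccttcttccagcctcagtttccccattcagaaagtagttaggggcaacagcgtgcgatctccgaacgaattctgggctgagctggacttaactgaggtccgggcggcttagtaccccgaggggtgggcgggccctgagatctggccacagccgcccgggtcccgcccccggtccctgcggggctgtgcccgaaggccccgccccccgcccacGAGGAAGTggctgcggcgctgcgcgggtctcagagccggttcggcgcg
Rnase4 and Ang: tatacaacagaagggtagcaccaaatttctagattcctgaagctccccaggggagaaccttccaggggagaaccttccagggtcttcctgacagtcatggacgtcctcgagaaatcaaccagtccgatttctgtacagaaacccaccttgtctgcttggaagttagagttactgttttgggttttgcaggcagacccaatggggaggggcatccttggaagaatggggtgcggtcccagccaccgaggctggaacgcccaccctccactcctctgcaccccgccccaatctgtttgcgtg

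Levels are given as log2 intensity relative to the 75th percentile of the array, so that 0 is the level of a fairly bright probe and each unit is a doubling. Levels of different probes are not compared, since probes differ in brightness. A difference is a log2 difference, APP/PS1 minus WT unless another is named, and a fold is given as such. Of the 48 arrays, 2 failed the scanner software's grid check and were left out, 1 in WT H2O cortex and 1 in WT MSX-3 cortex, which leaves 5 arrays in each of these groups. Arrays were scanned on 2 days. In the cortex 11 of 12 APP/PS1 arrays but 5 of 10 WT arrays were scanned on the first day, and in H2O hippocampus all 6 APP/PS1 arrays but 2 of 6 WT arrays. The Prnp probe, for the gene whose promoter drives the transgenes, separated APP/PS1 from WT arrays in each tissue and drink by gaps of 1.40 to 2.08. Of 8 markers of hippocampal neurons, 7 were higher in WT MSX-3 hippocampus than in cortex and none lower, and of 8 markers of cortical projection neurons 6 were lower and 1 higher, so the tissue labels fit their markers.

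The members' difference between APP/PS1 H2O and WT H2O cortex, which the choice used, ranged from 0.59 to 1.29 with a median of 0.80, while their H2O hippocampus difference ranged from -0.49 to 0.20 with a median of 0.11, and 19 of 64 were below 0. Within a scan day the cortex median was 0.75 on the first day (5 APP/PS1 and 2 WT arrays) and 0.86 on the second (1 and 3). The choice put every member above 0 on each day, so these values cannot test scan day. In the hippocampus the first-day median was 0.07, with 40 of 64 members above 0, and the second day held no APP/PS1 H2O array. The 3 members with the smallest cortex difference were the unnamed probe NM_001033416 (0.59), Mgst1 (0.59) and Il3ra (0.59), and just outside lay Pdpn (0.58), the unnamed probe ENSMUST00000154893 (0.58) and Npc2 (0.57). At the hippocampus limit Tcn2 (0.199), Spint1 (0.199) and Arpc1b (0.198) were inside, and AK041167 (0.202), Tgfbr1 (0.205) and H2-Q5 (0.207) outside. The narrowest gaps between the 2 cortex groups were 0.0019 for a chromosome 1 noncoding probe, 0.0024 for Hmga2-ps1 and 0.016 for Rbm47, and 1700072B07Rik (-0.0049), B3gnt6 (-0.013) and Ang (-0.016) overlapped by a little. The edges of the set were thus close to probes that missed it by hundredths of a log2 unit.

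The mean of the 64 probes on each array, expressed relative to WT H2O mice of both tissues, summarised the set. In the cortex the mean was 0.35 ± 0.12 (SD, n = 6) in APP/PS1 H2O and -0.47 ± 0.06 (n = 5) in WT H2O mice, and in MSX-3 mice it was 0.29 ± 0.12 (n = 6) in APP/PS1 and -0.36 ± 0.04 (n = 5) in WT. The lowest APP/PS1 MSX-3 cortex array, at 0.07, lay above the highest WT MSX-3 cortex array, at -0.31. In the hippocampus the mean was 0.45 ± 0.13 in APP/PS1 H2O, 0.39 ± 0.11 in WT H2O, 0.53 ± 0.10 in APP/PS1 MSX-3 and 0.32 ± 0.17 in WT MSX-3 mice (n = 6 each), and the genotypes overlapped. WT hippocampus arrays of both drinks were above WT cortex arrays, and lay in the range of the APP/PS1 cortex arrays or above it. Each group mean is a mean over the same 64 probes and carries no test of its own.

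**Figure D1:**
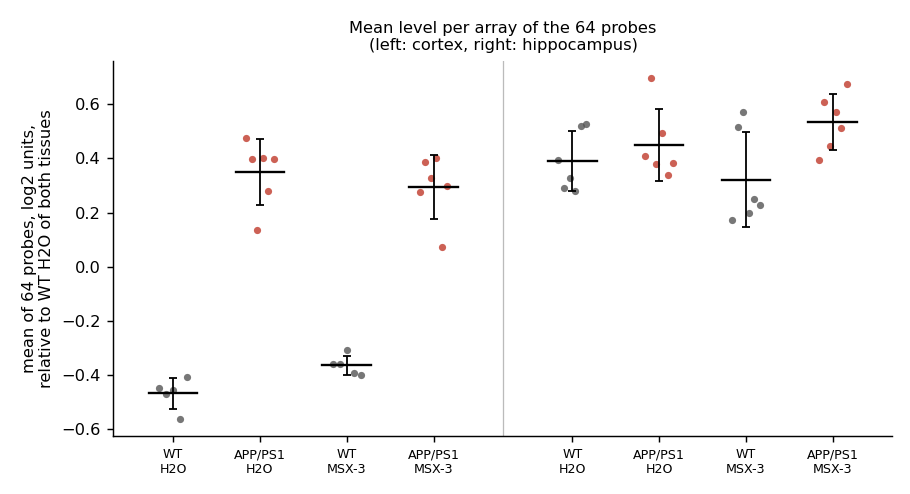
Mean level of the 64 probes on each array (log2 units, relative to WT H2O mice of both tissues) for the 8 groups, cortex on the left and hippocampus on the right. Points are arrays, horizontal lines group means and bars SD; WT cortex arrays lie between -0.56 and -0.31, and the other groups lie between 0.07 and 0.70.

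The first question was whether the rise in the cortex was seen in mice that the choice had not used. In MSX-3 mice 28 of the 64 probes were called higher in APP/PS1 than in WT cortex (limma, BH adjusted *p* under 0.05 over 37680 probes and a fold change of at least 1.5), none was called lower, and the background was 1.29% of all probes. Of the 64, 63 had a difference above 0 (44.3% of all probes), with a median of 0.66 against -0.03 over all probes tested. An unadjusted *p* under 0.05 was reached by 57 members (6.28% of all probes), and 42 had a difference of at least 0.585 (2.23%). Every APP/PS1 MSX-3 cortex array was above every WT MSX-3 cortex array for 32 members (2.34%). Of the other 416 probes raised in H2O cortex 335 were called, and their median difference was 1.09. On the first scan day alone, with 6 APP/PS1 and 3 WT arrays, 25 members were called (1.18% of all probes called higher) and the median was 0.68. The second day held no APP/PS1 MSX-3 cortex array. No slide held MSX-3 cortex arrays of both genotypes, on the first day included, so slide and genotype cannot be told apart in this comparison. Among the 27 named probes called, the call was kept in 6 of 24 alternative settings for Gm16118, 7 for Trim14, 9 each for Parvg and D17H6S56E-5, 11 for Spint1, 17 for Serpina3n and 18 for Dera, and in 22 or 23 for the others.

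Not every member followed. The MSX-3 mice were other animals than those of the choice and also had the drug, which cannot be told apart for such a member. The unnamed probe NAP065157-1 had a difference of -0.98 in MSX-3 cortex (SE 0.33, adjusted *p* = 0.255). AK033518 (0.02), AK089751 (0.02), Ccbe1 (0.09) and Mgst1 (0.10) had the smallest differences above 0, and Hfe (0.32), S1pr2 (0.34) and Lrrfip1 (0.35) came next, none of them called. Aim2 had a fitted difference of 1.47 (SE 0.49), which was not called (adjusted *p* = 0.244) and was 0.91 without WT mouse 304. Its WT MSX-3 cortex arrays read -7.63, -5.52, -4.73, -4.67 and -4.40, with 3 of 5 well above background, while APP/PS1 arrays had a lowest value of -4.29, a median of -3.82 and a highest value of -3.59. Aim2 encodes a sensor of cytosolic DNA that builds an inflammasome.

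The second question was whether the same probes stayed level in the hippocampus of MSX-3 mice. No member was called (background 0.309% of 38128 probes called higher). At an unadjusted *p* under 0.05, 14 members were higher (2.61% of all probes). The difference was above 0 for 54 members (51.6% of all probes), with a median of 0.20 against 0.01 over all probes. After quantile normalization 8 members and 735 of all 38128 probes were higher at an unadjusted *p* under 0.05, with medians of 0.13 and -0.02. With the slide as a block 10 members and 1150 of all probes were, with medians of 0.15 and -0.003, and 45 members were above 0. Only 32 of 64 stayed at or under 0.2, the limit of the choice, and 5 reached 0.585 (1.81% of all probes). For Trim14 alone among the 64 was every APP/PS1 MSX-3 hippocampus array above every WT one (0.585% of all probes). Within a scan day the median was 0.17 on the first and 0.27 on the second day. Of the 416 other probes raised in H2O cortex, 109 were called in MSX-3 hippocampus, with a median of 0.54.

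Both conditions of the choice on mean differences, at least 0.585 in the cortex and at most 0.2 in the hippocampus, were met again in MSX-3 mice by 20 of the 64 members, by 24 of the 416 others and by 0.574% of all probes. The difference between the tissues was then tested itself, by subtracting the hippocampus genotype difference from the cortex one in MSX-3 mice. It was called for 3 members, St8sia6, Rnase4 and Lpl, where 0.188% of 36743 probes were called higher and none lower. With the mouse as a block, since both tissues came from the same animals, 5 members were called (0.272% of all probes called higher). With the slide as a block none was (0.0163%), the differences of St8sia6, Rnase4 and Lpl then being 0.89, 0.81 and 0.88. An unadjusted *p* under 0.05 was reached by 31 members (4.05% of all probes) and 58 were above 0 (47.9%), with a median of 0.48 against -0.01. Of the 416 other probes 64 were called, with a median of 0.57, so that a larger genotype difference in the cortex was not particular to the 64. The count of 3 rested on single mice and arrays, since it was 0 without WT mouse 303, 1 without WT mouse 49, 77 or 304 or APP/PS1 mouse 281, 283 or 319, and 5 without APP/PS1 mouse 293. In these fits 0.122% to 0.240% of all probes were called higher.

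**Figure D2:**
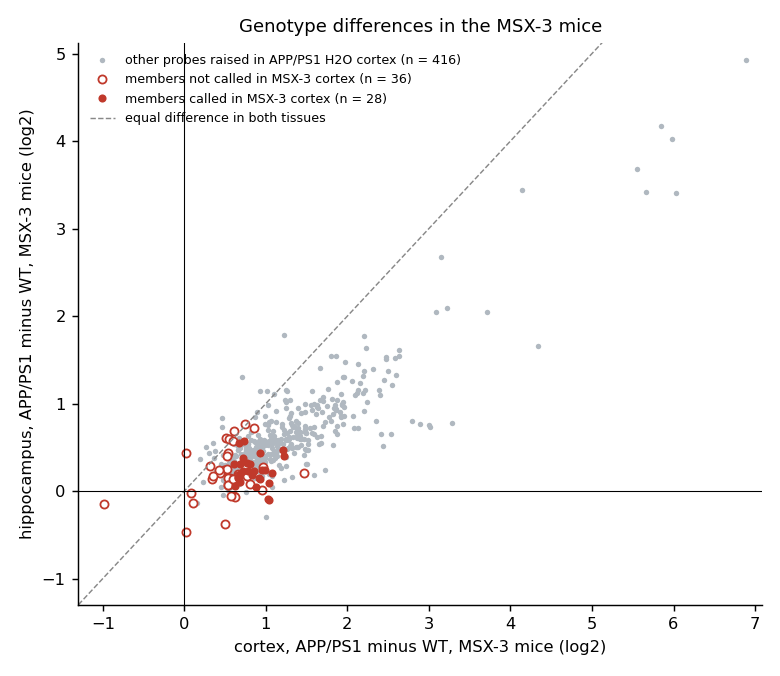
Difference between APP/PS1 and WT mice given MSX-3 in the cortex (x axis, log2) and hippocampus (y axis, log2) for each probe raised in APP/PS1 H2O cortex. Filled red points are the 28 members called in the cortex, open red points the 36 that were not, grey points the 416 other probes, and the dashed line marks equal differences; members lie between -0.46 and 0.77 in the hippocampus.

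St8sia6 encodes a sialyltransferase that caps glycans with sialic acid. Its level in H2O cortex was -4.18, -4.14, -3.97, -3.97 and -3.89 on the 5 WT arrays, and APP/PS1 arrays had a lowest value of -3.16, a median of -2.82 and a highest value of -2.67. In MSX-3 cortex the WT arrays read -4.37, -4.26, -4.00, -3.95 and -3.74, and the APP/PS1 arrays had a lowest value of -3.45, a median of -2.98 and a highest value of -2.77. The groups did not overlap in MSX-3 mice, whereas in H2O mice the choice required this. The MSX-3 difference was 2.03-fold (1.02 ± 0.15 SE, adjusted *p* = 0.00263 on the log2 scale). In the hippocampus WT arrays ran from -2.15 to -1.71 (median -1.97) in H2O and -2.28 to -1.83 (median -2.06) in MSX-3 mice, and APP/PS1 arrays from -2.32 to -1.21 (median -2.03) and -2.41 to -1.76 (median -2.12). Hippocampus arrays of both genotypes overlapped throughout and were all above every cortex array. The genotype difference of the cortex exceeded that of the hippocampus by 1.11 ± 0.19 SE, adjusted *p* = 0.00908.

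Rnase4 encodes a secreted ribonuclease whose gene shares its promoter with angiogenin. WT H2O cortex arrays read -2.09, -1.96, -1.90, -1.81 and -1.77, and APP/PS1 H2O arrays had a lowest value of -1.46, a median of -1.04 and a highest value of -0.67. WT MSX-3 cortex arrays read -2.24, -2.22, -2.08, -1.88 and -1.74, and APP/PS1 MSX-3 arrays had a lowest value of -1.40, a median of -1.12 and a highest value of -1.0. In MSX-3 mice the genotypes were apart, by 1.84-fold (0.88 ± 0.12 SE, adjusted *p* = 0.00133), and in H2O mice the choice required this. Hippocampus arrays ran from -1.40 to -0.80 (median -1.12) in WT and -1.18 to -0.95 (median -0.99) in APP/PS1 MSX-3 mice, which overlapped, and the tissues differed in their genotype difference by 0.83 ± 0.16 SE, adjusted *p* = 0.0184. Of the WT H2O hippocampus arrays 5 lay between -1.40 and -1.06 and that of mouse 310 at 0.15, and without this mouse Rnase4 did not meet the hippocampus limit in H2O mice. The related angiogenin gene Ang6 was 1.61-fold higher in APP/PS1 MSX-3 cortex (0.68 ± 0.12 SE, adjusted *p* = 0.0105), with WT arrays at -2.17, -1.92, -1.91, -1.89 and -1.42 below APP/PS1 arrays with a lowest value of -1.29, a median of -1.18 and a highest value of -1.04. Ang itself, just outside the choice, had a difference of 0.84 (SE 0.21, adjusted *p* = 0.0874), which was not called.

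Lpl encodes lipoprotein lipase, which releases fatty acids from lipoproteins and marks lipid-laden microglia near plaques. In H2O cortex WT arrays read -1.25, -1.14, -1.02, -1.01 and -0.86, and APP/PS1 arrays had a lowest value of -0.39, a median of -0.29 and a highest value of -0.08. In MSX-3 cortex WT arrays read -1.66, -1.51, -1.51, -1.38 and -1.32, and APP/PS1 arrays had a lowest value of -0.87, a median of -0.21 and a highest value of -0.16. No APP/PS1 MSX-3 array fell to the level of a WT MSX-3 array, which the choice required only of H2O mice. The MSX-3 difference was 2.11-fold (1.07 ± 0.15 SE, adjusted *p* = 0.00199). In the hippocampus the level ran from 0.40 to 1.12 (median 0.76) in WT H2O and 0.54 to 0.97 (median 0.84) in APP/PS1 H2O mice, and from 0.34 to 0.95 (median 0.60) and 0.63 to 1.06 (median 0.80) in the MSX-3 groups. These ranges overlapped and lay above every cortex array, and the genotype difference of the cortex exceeded that of the hippocampus by 0.87 ± 0.18 SE, adjusted *p* = 0.0488. Of the remaining Lpl probes, 1 was called in MSX-3 cortex (1.32, adjusted *p* = 0.00627) and 1 was not (1.09, adjusted *p* = 0.0535), and in H2O hippocampus their differences were 0.35 and 0.28, above the limit that the member probe met. For the difference between the tissues neither was called (1.17, adjusted *p* = 0.0627, and 0.73, adjusted *p* = 0.686). The member probe kept its call between the tissues in 9 of 26 alternative settings.

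**Figure D3:**
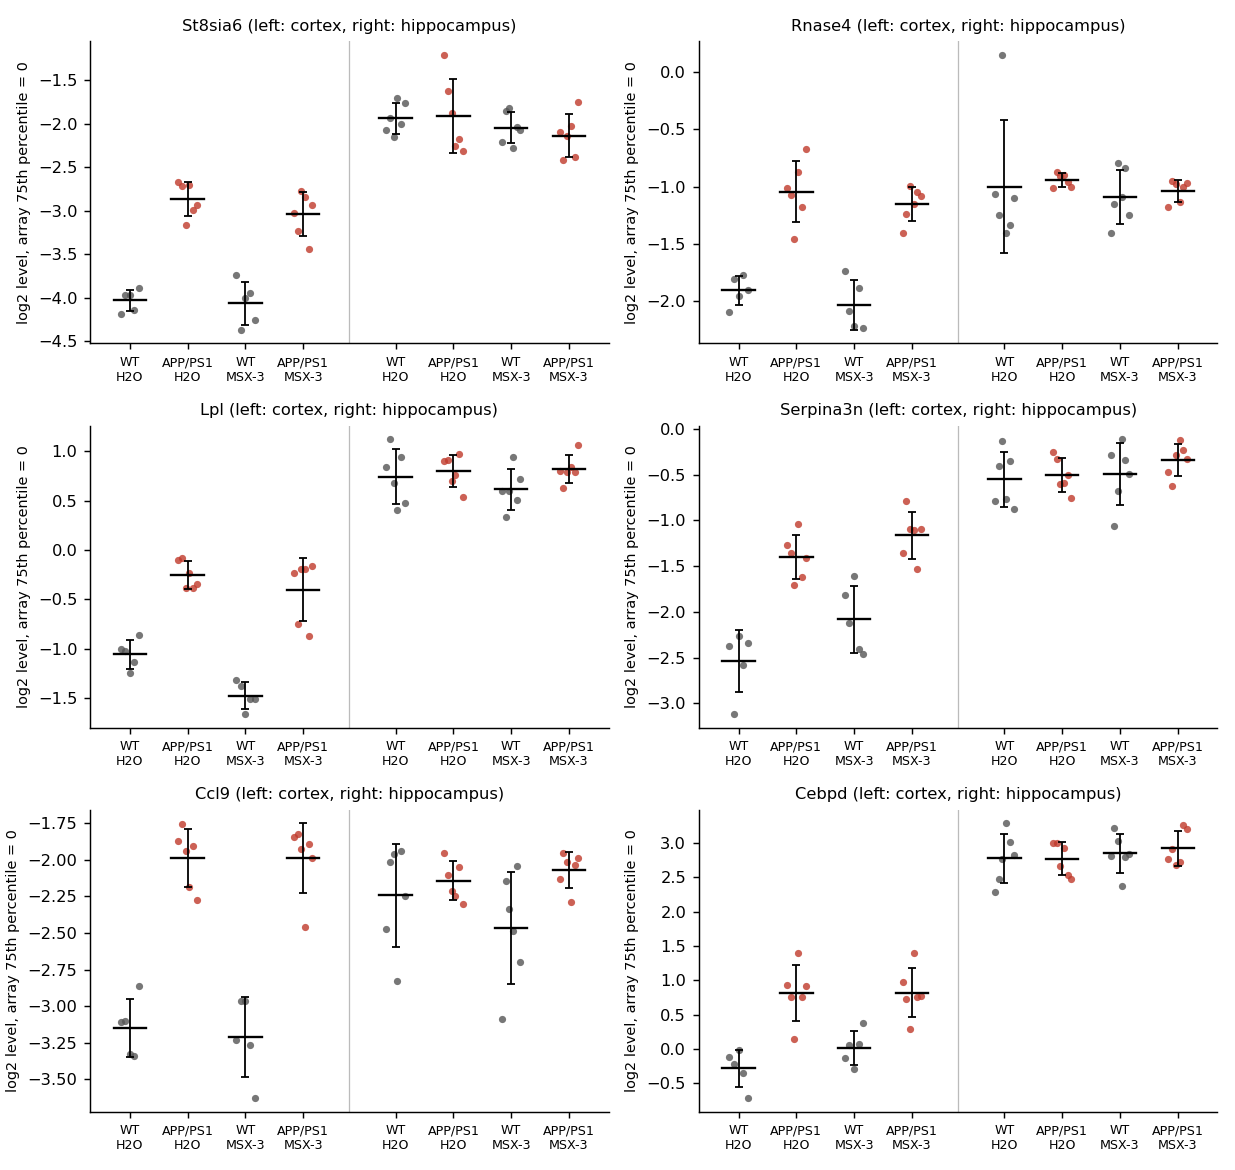
Levels of 6 member genes on each array (log2, array 75th percentile at 0), with WT in grey and APP/PS1 in red, cortex left and hippocampus right of the vertical line. Horizontal lines are means and bars SD. In the cortex APP/PS1 arrays lie above WT arrays, in H2O mice by the choice, apart from 1 Cebpd array of APP/PS1 MSX-3 mice. In the hippocampus the genotypes overlap for all 6 genes.

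The group of secreted proteins was taken loosely, with membrane-bound ones included, and counted 10 of the 64 probes. Its medians were 0.77 in MSX-3 cortex and 0.19 in MSX-3 hippocampus, where none was called, and 6 were called higher in MSX-3 cortex. They were the chemokine Ccl9, the protease inhibitors Serpina3n and Spint1, the ribonucleases Rnase4 and Ang6, and Tcn2, the carrier of cobalamin. The role groups used here were made after the values had been seen and carry no test. Their counts stand beside 28 of all 64 members called in MSX-3 cortex, where 1.29% of all probes were called higher. In MSX-3 hippocampus no member of any group was called, where 0.309% of all probes were called higher. Ccl9 read -3.63, -3.27, -3.23, -2.97 and -2.96 on WT MSX-3 cortex arrays and had a lowest value of -2.46, a median of -1.91 and a highest value of -1.83 on APP/PS1 arrays. The groups were apart, by 2.33-fold (1.22 ± 0.15 SE, adjusted *p* = 7.02e-04). Its H2O cortex arrays, apart by the choice, read -3.34, -3.33, -3.11, -3.10 and -2.86 in WT and ran from -2.27 to -1.76 (median -1.92) in APP/PS1 mice. In MSX-3 hippocampus it ran from -3.09 to -2.04 (median -2.41) in WT and -2.29 to -1.96 (median -2.03) in APP/PS1 mice, with overlap, a difference of 0.40 and an adjusted *p* of 0.957.

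Serpina3n, a serine protease inhibitor known to rise in reactive astrocytes, read -3.11, -2.58, -2.37, -2.35 and -2.27 in WT H2O and had a lowest value of -1.71, a median of -1.39 and a highest value of -1.04 in APP/PS1 H2O cortex. In MSX-3 cortex WT arrays read -2.45, -2.41, -2.13, -1.81 and -1.61 and APP/PS1 arrays had a lowest value of -1.53, a median of -1.10 and a highest value of -0.79. The highest WT and lowest APP/PS1 MSX-3 arrays were close but did not overlap, and the difference was 1.89-fold (0.92 ± 0.18 SE, adjusted *p* = 0.0207). Without WT mouse 49, 77 or 303 or APP/PS1 mouse 281, 283 or 319 it was no longer called, at differences of 0.83 to 0.91. In the hippocampus it ran from -1.07 to -0.11 (median -0.42) in WT and -0.62 to -0.12 (median -0.31) in APP/PS1 MSX-3 mice, which overlapped. Spint1 (difference 0.80) and Tcn2 (0.83) were called in MSX-3 cortex, and a further Spint1 probe was not (0.56, adjusted *p* = 0.511).

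The 4 other proteins grouped as secreted were not called in MSX-3 cortex. Spp1, osteopontin, read -1.66, -1.61, -1.51, -1.46 and -1.45 on WT H2O cortex arrays and had a lowest value of -1.27, a median of -0.54 and a highest value of -0.08 on APP/PS1 H2O arrays. In MSX-3 cortex the WT arrays read -1.82, -1.24, -1.20, -1.18 and -1.06, and the APP/PS1 arrays had a lowest value of -1.12, a median of -0.98 and a highest value of -0.09. The genotypes overlapped in MSX-3 mice, with a difference of 0.56 (SE 0.22, adjusted *p* = 0.349). Cxcl16, a membrane-bound chemokine, read -4.91, -4.85, -4.59, -3.70 and -3.59 in WT and had a lowest value of -3.86, a median of -3.65 and a highest value of -3.24 in APP/PS1 MSX-3 cortex. These overlapped through 2 WT arrays, with a difference of 0.74 (adjusted *p* = 0.268) and a hippocampus difference in these mice of 0.77 (adjusted *p* = 0.76). Both WT arrays, of mice 282 and 304, lay at -3.70 and -3.59. The remaining Cxcl16 probe was called in MSX-3 cortex (0.78, adjusted *p* = 0.00835). Ccbe1, a matrix protein of lymphatic growth, and 2610528A11Rik had differences of 0.09 and 0.61.

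Genes of metal and heme handling counted 5 probes, of which Frrs1 and Slc39a4 were called in MSX-3 cortex. Frrs1 encodes a ferric reductase. It read -5.16, -4.73, -4.49, -4.40 and -4.37 on WT H2O cortex arrays and had a lowest value of -3.76, a median of -3.34 and a highest value of -3.05 on APP/PS1 H2O arrays. In MSX-3 cortex WT arrays read -4.83, -4.78, -4.33, -4.33 and -4.29, and APP/PS1 arrays had a lowest value of -3.70, a median of -3.28 and a highest value of -3.00. The MSX-3 arrays did not overlap, whereas of the H2O arrays the choice required this. The MSX-3 difference of 2.31-fold (1.21 ± 0.15 SE, adjusted *p* = 7.93e-04) was the second largest among the members called. In MSX-3 hippocampus Frrs1 ran from -4.19 to -3.41 (median -3.99) in WT and -3.63 to -3.05 (median -3.46) in APP/PS1 mice, which overlapped, with a difference of 0.47 (adjusted *p* = 0.641), and the tissues' differences were not shown to differ (0.74, adjusted *p* = 0.357).

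Slc39a4 encodes a zinc importer of the cell membrane. Its WT MSX-3 cortex arrays read -4.29, -4.20, -3.93, -3.66 and -3.62, and its APP/PS1 arrays had a lowest value of -3.10, a median of -2.92 and a highest value of -2.69. The groups were apart by 2.06-fold (1.04 ± 0.14 SE, adjusted *p* = 0.00188). In H2O mice, where the choice required them to be apart, WT arrays read -4.26, -4.18, -3.85, -3.78 and -3.54 and APP/PS1 arrays ran from -3.31 to -2.40 (median -2.69). Its hippocampus values fell into separate clusters that did not follow the genotype and are given with the choroid plexus markers below. Hmox1, the enzyme that breaks down heme (0.53, adjusted *p* = 0.0403), was under 1.5-fold. Tspo, a mitochondrial protein used as a microglial imaging target (0.53, adjusted *p* = 0.0547), and Hfe, a regulator of iron uptake (0.32, adjusted *p* = 0.37), were not called.

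Of 7 metabolic enzymes 5 were called in MSX-3 cortex. Besides St8sia6 and Lpl they were Naprt, which makes NAD from nicotinic acid (0.96), Agpat2, which makes phosphatidic acid (0.86), and Dera, which splits deoxyribose phosphate (0.72). A further Agpat2 probe was not called (0.44, adjusted *p* = 0.367), and its H2O hippocampus difference of 0.23 was above the limit of the choice. Hk2, an inducible hexokinase, was not called (0.66, adjusted *p* = 0.0852), nor was Mgst1, a microsomal glutathione transferase. In MSX-3 hippocampus the group ran from -0.14 (Mgst1) to 0.38 (Dera) with a median of 0.20, against a median of 0.86 in the cortex.

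Of 7 probes for the cytoskeleton, adhesion and membrane traffic 6 were called in MSX-3 cortex, with a median of 0.77 in the cortex and 0.23 in the hippocampus. Arpc1b, a subunit of the complex that starts branched actin filaments, read -4.04, -3.99, -3.88, -3.76 and -3.71 on WT MSX-3 cortex arrays and had a lowest value of -3.23, a median of -3.12 and a highest value of -2.93 on APP/PS1 arrays. The groups were apart and narrow, with a difference of 1.71-fold (0.78 ± 0.09 SE, adjusted *p* = 4.93e-04). In MSX-3 hippocampus Arpc1b ran from -3.92 to -3.33 (median -3.46) in WT and -3.73 to -3.15 (median -3.26) in APP/PS1 mice, with overlap. A second Arpc1b probe was not in the set, since its H2O hippocampus difference was 0.41, and its genotype difference differed between the tissues (0.62, adjusted *p* = 0.0471). The others called were Tns3, a tensin of focal adhesions (0.99), Tuba1c, an alpha-tubulin (0.93), F11r, a junctional adhesion molecule (0.77), Rab32, a small GTPase of organelle traffic (0.66), and Parvg, a parvin of blood-derived cells (0.62). Further probes of Tns3 (0.06 and 0.54) and Tuba1c (0.04 and 0.07) were not called. Spata13, an exchange factor of small GTPases, was not called (0.62, adjusted *p* = 0.0825).

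Surface proteins of immune cells counted 6 probes, and Csf2rb2 and Nrros were called in MSX-3 cortex. Csf2rb2, a beta chain of the interleukin-3 receptor, read -4.06, -4.02, -3.83, -3.74 and -3.54 on WT and had a lowest value of -3.46, a median of -3.04 and a highest value of -2.91 on APP/PS1 MSX-3 cortex arrays. The groups were apart, by 1.66-fold (0.73 ± 0.13 SE, adjusted *p* = 0.0137). In the hippocampus it ran from -3.01 to -2.10 (median -2.43) in WT and -2.45 to -1.54 (median -1.95) in APP/PS1 MSX-3 mice, a difference of 0.57 (adjusted *p* = 0.693) that was not called. The receptor's alpha chain Il3ra had a difference of 0.60 in MSX-3 cortex (adjusted *p* = 0.135), and Csf2rb, the related common beta chain, was called with 1 probe (1.07, adjusted *p* = 0.00954) and not with another (-0.45, adjusted *p* = 0.657). Nrros, which holds latent TGF-beta on microglia, was called (0.68), while Ms4a7, a membrane protein of macrophages (0.66), and Cd5, a surface receptor of lymphocytes (0.55), were not. The group's medians were 0.63 in MSX-3 cortex and 0.44 in MSX-3 hippocampus, the closest of any named role group.

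The Ptprc probe, for the leukocyte phosphatase CD45, had the largest H2O cortex difference of the set (1.29), where WT arrays read -4.50, -4.41, -4.13, -3.99 and -3.73 and APP/PS1 arrays had a lowest value of -3.30, a median of -3.01 and a highest value of -2.27. In MSX-3 cortex WT arrays read -4.23, -4.18, -3.97, -3.46 and -3.06, and APP/PS1 arrays had a lowest value of -3.76, a median of -3.29 and a highest value of -2.87. These overlapped, with a difference of 0.51 (SE 0.23, adjusted *p* = 0.407). The other 2 Ptprc probes were called in both tissues of MSX-3 mice, at 2.19 and 1.85 in the cortex and at 1.32 and 0.99 in the hippocampus (adjusted *p* = 0.0221 and 0.0017), and their H2O hippocampus differences were 1.0 and 0.87. The gene as a whole therefore did not have the pattern of its member probe, which was named through the study's own probe tables. For Tns3, Lrrfip1, Tuba1c, Trim14, Tgif2, Rexo5 and Slc22a18, likewise, other probes had H2O cortex differences between -0.27 and 0.14, well under those of the member probes.

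The sensors and effectors of foreign nucleic acid were 4 probes. Zc3hav1, an antiviral zinc finger protein (0.68), and Trim14, an adaptor of antiviral signalling (0.67), were called in MSX-3 cortex, and Aim2 and Lrrfip1, a nucleic acid binding protein, were not. A further probe of each called gene was not called, at 0.57 (adjusted *p* = 0.354) for Zc3hav1 and 0.20 (adjusted *p* = 0.657) for Trim14. Trim14 had a difference of 0.54 in MSX-3 hippocampus, where it was not called (adjusted *p* = 0.35). Among 4 probes for signalling and proteolysis Plce1, a phospholipase C, was called: WT MSX-3 cortex arrays read -4.16, -3.99, -3.76, -3.74 and -3.46, APP/PS1 arrays had a lowest value of -3.08, a median of -2.91 and a highest value of -2.67, and the difference was 0.93 ± 0.13 SE, adjusted *p* = 0.0017. A further Plce1 probe was not called (0.59, adjusted *p* = 0.286). Capn3, a calpain protease, was measured by 2 probes, of which 1 was called (1.04 ± 0.17 SE, adjusted *p* = 0.007) and 1 was not (0.95 ± 0.24 SE, adjusted *p* = 0.0893). WT arrays of the called probe read -1.86, -1.54, -1.41, -1.38 and -1.21, below APP/PS1 arrays with a lowest value of -0.91, a median of -0.48 and a highest value of 0.11, whereas arrays of its second probe overlapped. S1pr2, a receptor for sphingosine phosphate, was not called.

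None of the 5 transcription regulators was called in MSX-3 cortex, although all 5 differences lay between 0.53 and 0.81. Cebpd, the gene of C/EBP-delta, read -0.72, -0.35, -0.23, -0.12 and -0.02 on WT and had a lowest value of 0.14, a median of 0.84 and a highest value of 1.40 on APP/PS1 H2O cortex arrays. In MSX-3 cortex WT arrays read -0.29, -0.13, 0.05, 0.06 and 0.38, and APP/PS1 arrays had a lowest value of 0.29, a median of 0.76 and a highest value of 1.40. The MSX-3 groups overlapped through 1 APP/PS1 array, and the difference of 0.81 (SE 0.18) missed the threshold at an adjusted *p* of 0.0509. Maff (0.53), Tgif2 (0.53), Lbx2 (0.77) and Mdfic (0.53) were not called. Mcm3, a subunit of the replicative helicase, was measured by 2 member probes (0.61 and 0.58), of which the second passed the adjusted threshold (0.0397) without reaching 1.5-fold. Of 2 further Mcm3 probes outside the set, 1 was called in MSX-3 cortex (1.93, adjusted *p* = 0.00245), with a tissue difference of 2.29 that was not called (adjusted *p* = 0.0886), and 1 was under 1.5-fold (0.58, adjusted *p* = 0.0351). In H2O cortex the differences of these probes were 0.23 and 0.54. The RNA-binding Rbm47 (0.85) and the RNA exonuclease Rexo5 (0.43) were not called. Of 6 genes of other or unknown role, Gm16118 (0.66) and D17H6S56E-5 (0.72) were called, and Glrp1, Hmga2-ps1, E230029C05Rik and the transporter Slc22a18 had differences of 0.43 to 0.60. Of the 6 unnamed probes NM_001033416 was called (0.61), and BC028789 (0.48) and the chromosome 1 noncoding probe (0.96) were not.

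The level in WT animals was then compared between the tissues, because WT hippocampus had stood above WT cortex in the array means. This comparison was added after those means had been seen, it shares its WT MSX-3 cortex arrays with the genotype comparison of the cortex, and it uses the MSX-3 mice. In WT MSX-3 mice 28 members were called higher in the hippocampus than in the cortex (8.07% of 36743 probes), and Spp1 was called lower (-0.91, adjusted *p* = 0.00296). An unadjusted *p* under 0.05 was reached by 36 members (21.3% of all probes), and the difference was above 0 for 53 (52.6%), with a median of 0.37 against 0.02 over all probes. Of the 416 other probes raised in H2O cortex 53 were called higher, with a median of 0.20. Cebpd had the largest difference, 2.83 ± 0.16 (SE), where WT MSX-3 hippocampus arrays ran from 2.38 to 3.23 (median 2.83) against the cortex values above. It was followed by the 2 Capn3 probes (2.58 and 2.46), Lpl (2.09), Slc39a4 (2.07), St8sia6 (2.02) and Aim2 (1.96). For Cebpd, Lpl, St8sia6 and both Capn3 probes, WT hippocampus arrays of both drinks lay above the APP/PS1 cortex arrays as well. Cebpb and Cebpa, the related factors, were also higher in WT hippocampus (1.33, adjusted *p* = 0.000138, and 0.88, adjusted *p* = 0.000157) and neither was a member.

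**Figure D4:**
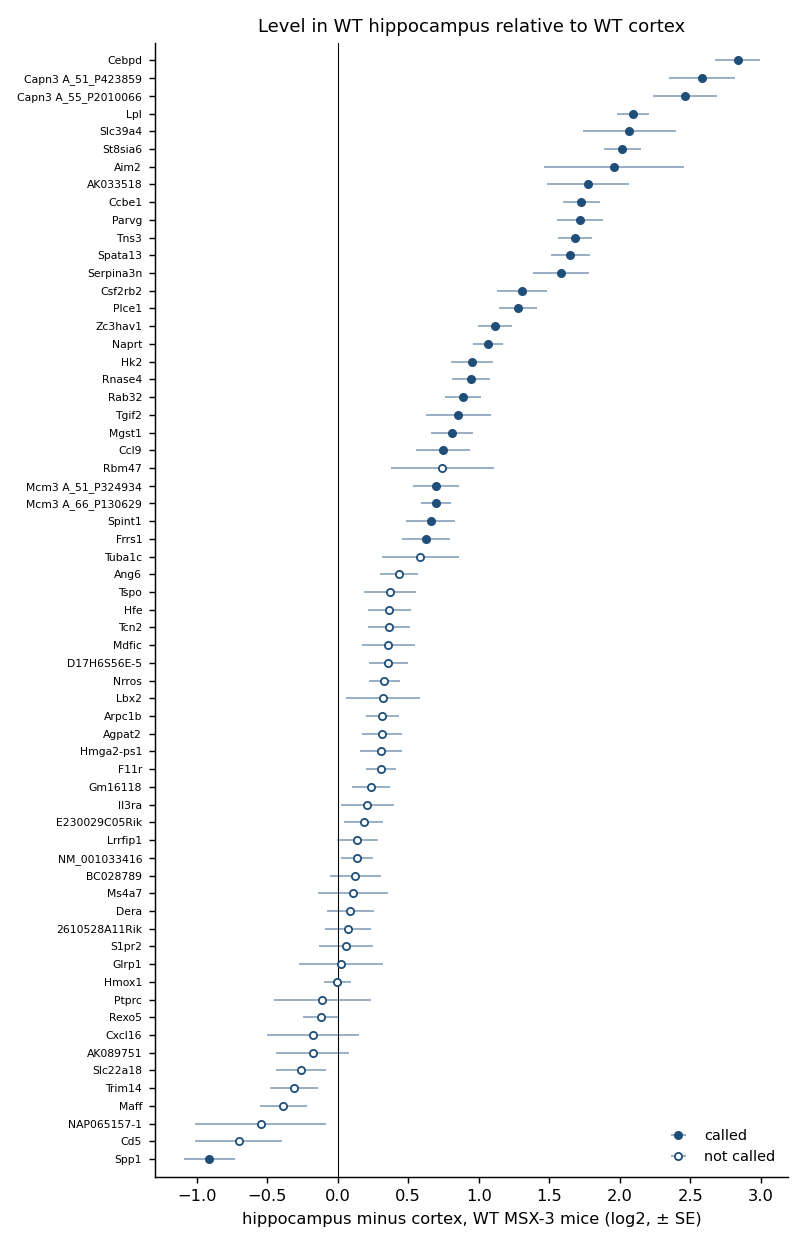
Difference between WT hippocampus and WT cortex of MSX-3 mice for the members (log2, points with SE bars), ordered by size. Filled points were called; they run from Cebpd at the top to Frrs1 on the right of 0, with Spp1 alone called on the left, at -0.91. The noncoding probe of chromosome 1 is not drawn.

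RNA of the choroid plexus differed between hippocampus arrays. The mean of 7 choroid plexus markers, among them transthyretin (Ttr), was 1.49 to 2.39 on 6 of 24 hippocampus arrays and -3.85 to -1.42 on the other 18. The 6 arrays belonged to WT H2O (3), APP/PS1 H2O (1), APP/PS1 MSX-3 (1) and WT MSX-3 (1) mice. On these 6 arrays Slc39a4 read -0.37 to 0.35 and on the other 18 -3.42 to -1.75. Tuba1c read -0.11 to 1.04 against -1.96 to -0.92, and Mdfic -1.51 to -0.73 against -2.87 to -1.98. Slc39a4, Tuba1c and Mdfic thus separated the arrays as the markers did, and Rbm47 and Slc22a18 nearly so, whereas St8sia6 (-2.07 to -1.63 against -2.41 to -1.21), Lpl (0.47 to 0.95 against 0.34 to 1.12) and Rnase4 overlapped.

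Without these 6 arrays, left out as an alternative chosen after the values were known, 42 of the 64 members met the choice. The H2O hippocampus difference became 0.85 for Slc39a4, 0.59 for Mdfic, 0.42 for Rbm47, 0.35 for Frrs1 and 0.32 for Tuba1c, all above the limit of 0.2. The median of this difference over the 64 members hardly moved, at 0.110 without these arrays and 0.106 with them. In MSX-3 hippocampus still no member was called (0.270% of all probes called higher), with a median of 0.24. In WT MSX-3 mice 27 members were called higher in hippocampus than in cortex (7.83% of all probes), with a median of 0.34. Of the 3 differences between the tissues St8sia6 was called without these arrays, and Rnase4 (0.75) and Lpl (0.88) were not.

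**Figure D5:**
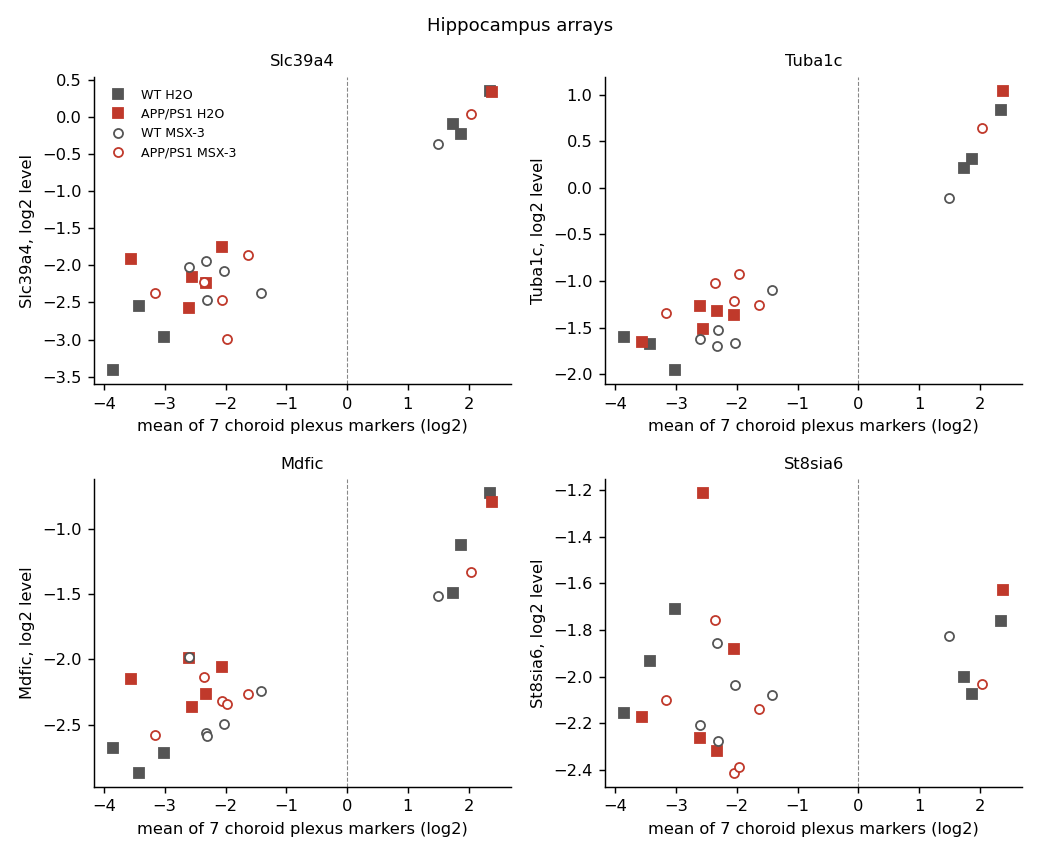
Level of Slc39a4, Tuba1c, Mdfic and St8sia6 (log2, y axes) against the mean of 7 choroid plexus markers (log2, x axes) on the 24 hippocampus arrays. Squares are H2O and open circles MSX-3 mice, with APP/PS1 in red; the 6 arrays to the right of 0 are the highest for Slc39a4, Tuba1c and Mdfic and are mixed with the others for St8sia6.

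Lists of marker and pathway genes, chosen with earlier results of these data known, place the members. Of 20 markers of plaque-induced microglia Lpl and Spp1 were members, of 11 chemokines and cytokines Ccl9 and Cxcl16, and of 14 reactive astrocyte genes Serpina3n, and no other list held a member. Over all probes tested, 1.29% were called higher in MSX-3 cortex, 0.309% in MSX-3 hippocampus and 0.188% for the difference between the tissues. Of 19 plaque-induced microglia genes measured, 15 were called higher in MSX-3 cortex (median 1.41), 9 in MSX-3 hippocampus (median 0.58) and 7 for the difference between the tissues. Complement genes were called 7, 3 and 3 times of 8, and chemokines 7 of 10, 2 of 9 and 1 of 9 times. Reactive astrocyte genes were called 6, 3 and 1 times of 12, and lysosome genes 5, 2 and 2 times of 11. Homeostatic microglia genes were called 8, 0 and 0 times of 15, with medians of 0.77 and 0.24. Interferon response genes were called 11 of 17, 2 of 16 and 0 of 16 times, antigen presentation genes 6 of 12, 0 of 11 and 0 of 11. Among the other 19 lists 1 cholesterol synthesis gene was called in the cortex and no other gene in any of the 3 comparisons, the lists of neurons, astrocytes, oligodendrocytes, endothelium, blood and choroid plexus included.

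The difference between MSX-3 and H2O mice of 1 genotype is a description, since the H2O arrays chose the genes. The members' median was -0.05 in APP/PS1 cortex, where it was 0.02 after quantile normalization, and 0.07 in WT cortex. After normexp background correction the values were -0.01 and 0.03. In the hippocampus it was 0.10 in APP/PS1 mice (0.03 after quantile normalization and 0.05 after normexp) and -0.06 in WT mice (-0.03 and -0.04). These medians were smaller than the median genotype difference in MSX-3 cortex (0.66), but they do not describe each member. Single members ran from -0.72 to 0.41 in APP/PS1 cortex and from -0.82 to 1.16 in WT cortex. In the hippocampus they ran from -0.26 to 0.62 in APP/PS1 and from -0.82 to 0.76 in WT mice.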

How the data were processed

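Total RNA from the cortex and hippocampus of 24 mice was hybridised to Agilent 8x60k arrays. The authors deposited Feature Extraction 10.7.3.1 scanner files, in which the processed signal is a background-subtracted and detrended intensity with no normalization between arrays, and the deposited value table holds the same intensity values (difference within 1e-06). Its authors' methods name the 75th percentile, a moderated test, Benjamini-Hochberg (BH) adjustment and a 1.5-fold limit, and the same was done here: log2 of the processed signal minus the array's 75th percentile over non-control spots (3671 control spots of 62976 left out), spots of a probe averaged, limma 3.58.1 in R 4.3.3. Probes were tested in a tissue when 1 of its groups had 4 or more arrays on which the software marked them well above background. RefSeq accessions named 32994 probes, and the study's probe tables named 6 members.

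Samples were grouped by GEO's labels, and 46 of 48 arrays were used. On the 2 left out the 75th percentile was 2.77 to 4.18, against 535 to 1084 on the others, and the share of spots above background was 11.4% to 15.8%, against 55.8% to 75.5%. The number of arrays limits the precision. The members and lists were chosen with earlier results of these data known. Named genes are the members with 1 symbol, the nearest probes outside the choice and genes a result turns on, and the members given array by array were picked after values were seen. Mouse numbers in the labels pair both tissues of 1 animal, and over 11 MSX-3 mice with both arrays the correlation of deviations from the group means ran from -0.24 to 0.40 (median 0.12). Alternatives were normexp background correction, quantile normalization, other percentiles, outlier spots, array weights, slide, scan day and mouse as a block, failed arrays kept and each mouse left out. Tested on simulated data for the 4 MSX-3 comparisons, 52 to 70 of 100 probes raised by 1 log2 unit were called, and 84 to 94 of 100 raised by 2.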

Additional observations from a re-analysis of the deposited data

Results flagged for a closer look

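For 18 member probes and the mean of all members, each in 8 groups of 5 or 6 arrays, 152 sets of values were checked for an array far from the rest of its group by Dixon's 95% criterion, which chance meets in about 5% of sets, and 8 values were found. In the cortex they were the Ccl9 level of APP/PS1 MSX-3 mouse 283, at -2.46, and the Spp1 level of WT MSX-3 mouse 304, at -1.82, both the lowest of their group. In WT H2O hippocampus they were the Rnase4 level of mouse 310 (0.148), the Cxcl16 level of mouse 56 (-3.41) and the Aim2 level of mouse 310 (-4.09). The Slc39a4 level stood apart on the hippocampus arrays of APP/PS1 H2O mouse 259 (0.341) and WT MSX-3 mouse 303 (-0.366), and both arrays were among the 6 with high choroid plexus markers. In WT MSX-3 hippocampus the Ptprc level of mouse 298, at -2.50, was the highest of its group.

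A genotype difference that itself differed between cortex and hippocampus of MSX-3 mice (limma, BH adjusted) was found for St8sia6 (1.11), Rnase4 (0.828) and Lpl (0.873), given in log2 units as cortex minus hippocampus.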

How the results depend on the processing

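The set depended on the choice of mice. It held 51 to 89 probes without 1 H2O mouse, 43 to 54 of them among the 64, and 21 members were chosen whichever mouse was left out, while 23 were lost in 4 or more cases. It held 26 probes after normexp background correction (19 shared), 39 after quantile normalization (36 shared) and 89 with the 2 failed arrays kept (9 shared). In MSX-3 cortex 18 members were called after normexp (0.971% of all probes called higher), with a median of 0.441 against 0.01 over all probes. None was called with the failed arrays kept (0.0871% of all probes), with a median of 0.195, while that of all probes moved to -0.26. Called members numbered 37 with array weights (1.51% of all probes), 38 in the fit of all 4 groups (1.46%), 23 with slide as a random block (1.12%) and 24 with scan day as a block (1.13%). Slide as a fixed block could not be fitted there, as no slide held both genotypes. Leaving out 1 mouse gave 22 to 30 called members (median 0.643 to 0.704), with 1.12% to 1.32% of all probes called higher. In the hippocampus it gave 0 (median 0.183 to 0.242), with 0.244% to 0.315% of all probes called higher.

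The difference between the tissues was called for 6 members with array weights (0.327% of all probes called higher) and 5 with the mouse as replicate block (0.272%). It was called for 1 on the first scan day (0.0980%) and 1 without the choroid plexus arrays (0.117%). With slide as a block (0.0163%) or the failed arrays kept (0.0136%) it was called for 0. Without 1 mouse it was called for 0 to 5 (median 0.416 to 0.523), with 0.122% to 0.245% of all probes called higher. Its median was 0.328 after normexp and 0.0641 with the failed arrays kept. The excess of WT hippocampus over WT cortex was called for 5 members with the failed arrays kept (median 0.0284, 1.49% of all probes called higher). It was called for 19 with slide as a block (5.12%) and 28 with the mouse as a block (8.33%). Without 1 mouse it was called for 25 to 28 (median 0.297 to 0.491), with 6.90% to 8.83% of all probes called higher. The median MSX-3 difference in WT cortex was 0.0268 after normexp.

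With the failed arrays kept, the cortex difference became negative for Ptprc (-0.528), Cxcl16 (-0.0845), Csf2rb2 (-0.0104), Maff (-0.435), Glrp1 (-0.00167), Trim14 (-0.494), D17H6S56E-5 (-0.0068), Slc22a18 (-0.136), 1 Mcm3 probe (-0.387), S1pr2 (-0.325), Spata13 (-0.0180), Lrrfip1 (-0.0430), Tgif2 (-0.319), Ccbe1 (-0.120), Lbx2 (-0.512) and Mgst1 (-0.0484), and the WT tissue difference for Frrs1 (-0.0556) and 1 Mcm3 probe (-0.300). Ccbe1 ran from -0.00400 without APP/PS1 mouse 266 to 0.262 without mouse 293. Of the other single-member values in MSX-3 cortex 1216 kept their direction and side of the threshold, 114 lost the call and 45 gained it. Of the values for St8sia6, Rnase4 and Lpl between the tissues 47 were kept and 31 lost the call. By gene, the call was kept in 23 of 26 settings for St8sia6, 15 for Rnase4 and 9 for Lpl. For the WT tissue difference 304 were kept and 45 lost the call. The causes were not tested. Alternatives on scan day, choroid plexus arrays, outlier spots and all those of the WT tissue difference were chosen after seeing the data. For the choice itself no test was made, and signal near background limited Aim2 in WT cortex.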
